A study of Mus musculus with 9 samples.

Results

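The interferon response genes described here are 46 mouse genes that interferons are known to switch on or that carry the interferon signal. They were taken by symbol, by a rule that names no measured value, though earlier results of these data were known when they were listed. All 46 were found among the 27179 genes of the count table. RNA was sequenced from alveolar macrophages, which live in the airspaces and clear surfactant and microbes, after sorting them by flow cytometry from the lungs of mice 1 week old on the C57BL/6 background. The wild type group has 4 libraries and the Suz12 cKO group, mice with a conditional knockout of Suz12, has 5, all stated to be biological replicates. Suz12 is needed for the Polycomb enzyme complex PRC2, the writer of the repressive histone mark H3K27me3. The sources used here do not give the Cre that deletes Suz12, the deleted exons, or whether a library came from 1 animal or from a pool.

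Interferons are secreted signalling proteins, and a cell can release those of type I on sensing foreign nucleic acid. Type I interferons bind the receptor made of Ifnar1 and Ifnar2, and the kinases Jak1 and Tyk2 then phosphorylate STAT proteins, which join Irf9 and bind a DNA element called the ISRE. Interferon gamma binds Ifngr1 and Ifngr2, and STAT dimers then bind another element, the GAS. The genes switched on in this way include sensors of viral RNA, enzymes that degrade or modify RNA, large GTPases that act on membranes of pathogens, and the immunoproteasome, which makes peptides for antigen presentation. Alveolar macrophages are a known source of type I interferon in respiratory virus infection.

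Both elements were looked for in the RefSeq promoter windows of build GRCm38.p6, each running from 250 bases before to 50 bases after an annotated transcription start, on both strands. The letters searched were GAAA, any 2 bases, GAAA for the ISRE core and TTCNNNGAA for the GAS. Windows were given for 35 of the 46 genes, and 19 of these (54.3%) held the ISRE core, against 3.99% of the 27025 genes with a window. The GAS letters were in 11 of the 35 (31.4%), against 9.55% of those genes. Overlapping matches were counted separately, and a match is a run of letters, not a shown binding site. The stretches of 250 bases up to the start site are printed for 5 genes, 5′ to 3′ on the gene's strand, because 4 of them differed between the groups and the other, Isg15, is the textbook ISRE gene. Capitals mark the matches, and TTTC, any 2 bases, TTTC is the ISRE core read on the opposite strand.
Irf1, chr11:53769764-53770013, plus strand, 1 GAS match: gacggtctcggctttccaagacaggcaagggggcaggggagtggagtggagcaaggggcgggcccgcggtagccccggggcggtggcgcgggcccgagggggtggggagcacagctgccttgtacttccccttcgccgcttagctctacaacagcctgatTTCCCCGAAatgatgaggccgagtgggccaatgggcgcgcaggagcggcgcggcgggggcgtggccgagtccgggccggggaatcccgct
Gbp5, chr3:142496684-142496933, plus strand, 2 GAS and 1 ISRE match: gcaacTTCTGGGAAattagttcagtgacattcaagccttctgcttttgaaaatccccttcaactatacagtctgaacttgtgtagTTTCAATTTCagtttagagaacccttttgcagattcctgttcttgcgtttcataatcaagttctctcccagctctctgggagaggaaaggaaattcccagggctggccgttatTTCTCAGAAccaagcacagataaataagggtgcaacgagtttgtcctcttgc
Gbp2, chr3:142620413-142620662, plus strand, 1 ISRE match: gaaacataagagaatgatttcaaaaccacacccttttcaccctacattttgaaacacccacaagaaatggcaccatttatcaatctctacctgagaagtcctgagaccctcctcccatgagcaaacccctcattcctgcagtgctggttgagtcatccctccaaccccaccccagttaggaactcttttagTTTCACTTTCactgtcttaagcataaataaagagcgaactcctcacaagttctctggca
Trim25, chr11:88999153-88999402, plus strand, no match: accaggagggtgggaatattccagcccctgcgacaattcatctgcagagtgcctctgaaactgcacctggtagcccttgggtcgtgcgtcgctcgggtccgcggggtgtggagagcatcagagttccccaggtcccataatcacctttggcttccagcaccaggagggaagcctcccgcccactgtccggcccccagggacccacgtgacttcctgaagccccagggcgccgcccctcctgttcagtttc
Isg15, chr4:156200819-156201068, minus strand, 3 overlapping ISRE matches in 1 run: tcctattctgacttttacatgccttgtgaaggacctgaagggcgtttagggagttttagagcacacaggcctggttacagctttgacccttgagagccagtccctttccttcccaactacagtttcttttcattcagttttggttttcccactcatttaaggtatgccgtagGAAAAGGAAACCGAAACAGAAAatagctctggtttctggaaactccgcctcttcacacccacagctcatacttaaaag
Shorter stretches are printed around 1 ISRE match each, in genes of very different level, with only that match in capitals. In Oas1a another match, GAAACTGAAA, overlaps the printed one and is left in lower case. Ifit3 and Ifit3b are neighbouring near-copies, and the 40 bases around this match were the same in both.
Ifit1, chr19:34640789-34640828, plus strand: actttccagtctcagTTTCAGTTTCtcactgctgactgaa
Ifit3, chr19:34583392-34583431, plus strand: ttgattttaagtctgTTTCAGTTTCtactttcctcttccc
Ifit3b, chr19:34607788-34607827, plus strand: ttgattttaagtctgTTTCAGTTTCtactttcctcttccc
Oas1a, chr5:120907526-120907560, minus strand: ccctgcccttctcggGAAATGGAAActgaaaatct

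Levels are given as counts per 1000000 assigned reads (CPM) after TMM scaling, a correction for differences in RNA composition between libraries. The libraries held 13814799 to 25284693 assigned reads in wild type and 18584016 to 45606001 in the knockout. Suz12 itself averaged 66.6 ± 10.7 CPM in wild type (SD, n = 4) and 16.0 ± 4.11 CPM in the knockout (SD, n = 5), and the groups did not overlap (log2 fold change -2.06 ± 0.18 (SE), adjusted p = 0.0000169). The 12 alveolar macrophage markers examined all passed the filter on low counts. They summed to 23217.7 to 61566.1 CPM in wild type and 15646.4 to 42157.8 CPM in the knockout, with library 3 of each group the highest. Of them 1, Marco, was higher in the knockout, and 3, Car4, Fabp1 and Krt79, were lower, beside 8.97% and 11% of all tested genes. After a correction for gene length, described with the comparison, 4 were higher and 1 lower, beside 8.61% and 7.32% of all tested genes.

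Many of the classical interferon-stimulated genes were barely read in either group. The mean stayed below 1 CPM in both groups for 10 of the 46 genes: Ifit1, Ifit3, Ifit3b, Ifi44, Mx1, Mx2, Oasl1, Rsad2, Usp18 and Cmpk2. It stayed below 3 CPM in both groups for 20 genes, Isg15 among them at 2.97 ± 2.06 CPM in wild type (SD, n = 4) and 1.69 ± 0.446 CPM in the knockout (SD, n = 5). No read was counted in at least 1 wild type library for 13 genes, and in any wild type library for Ifit3b and Ifi44, where a count of 0 allows up to 3 counts per library. At the other end, 23 genes averaged 10 CPM or more in both groups, and Trim25, Ly6e and Psmb8 averaged above 100 CPM in both. Of the interferons themselves almost nothing was read: none of the 10 ligand genes examined passed the filter on low counts, and Ifnb1, Ifna1, Ifna4, Ifna5, Ifng, Ifne, Ifnl2 and Ifnl3 had no read in any of the 9 libraries.

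Per kilobase of gene length, the scale on which genes can be ranked, Psmb8 was the highest of the 46 in wild type at 136 ± 16.1 CPM per kb (SD, n = 4). Ly6e followed at 101 ± 10.9, Psmb9 at 83.4 ± 13.6 and Bst2 at 63.1 ± 5.61 CPM per kb. Trim25 at 50.8 ± 2.64 and Ifi27l2a at 50.6 ± 9.23 CPM per kb did not differ beyond their spread. In the knockout Trim25 was the third highest at 81.1 ± 7.63 CPM per kb (SD, n = 5), behind Psmb8 at 128 ± 8.57 and Ly6e at 107 ± 15.9. Ifi27l2a was at 25.1 ± 6.61 CPM per kb there and did not differ beyond the spread from Ifi35 at 25.7 ± 1.26. Psmb8 lay above 94.6% of all tested genes in wild type on this scale, Irf1, at rank 12 of the 46, above 52.6%, and Isg15, at rank 24, above 33.1%.

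**Figure D1:**
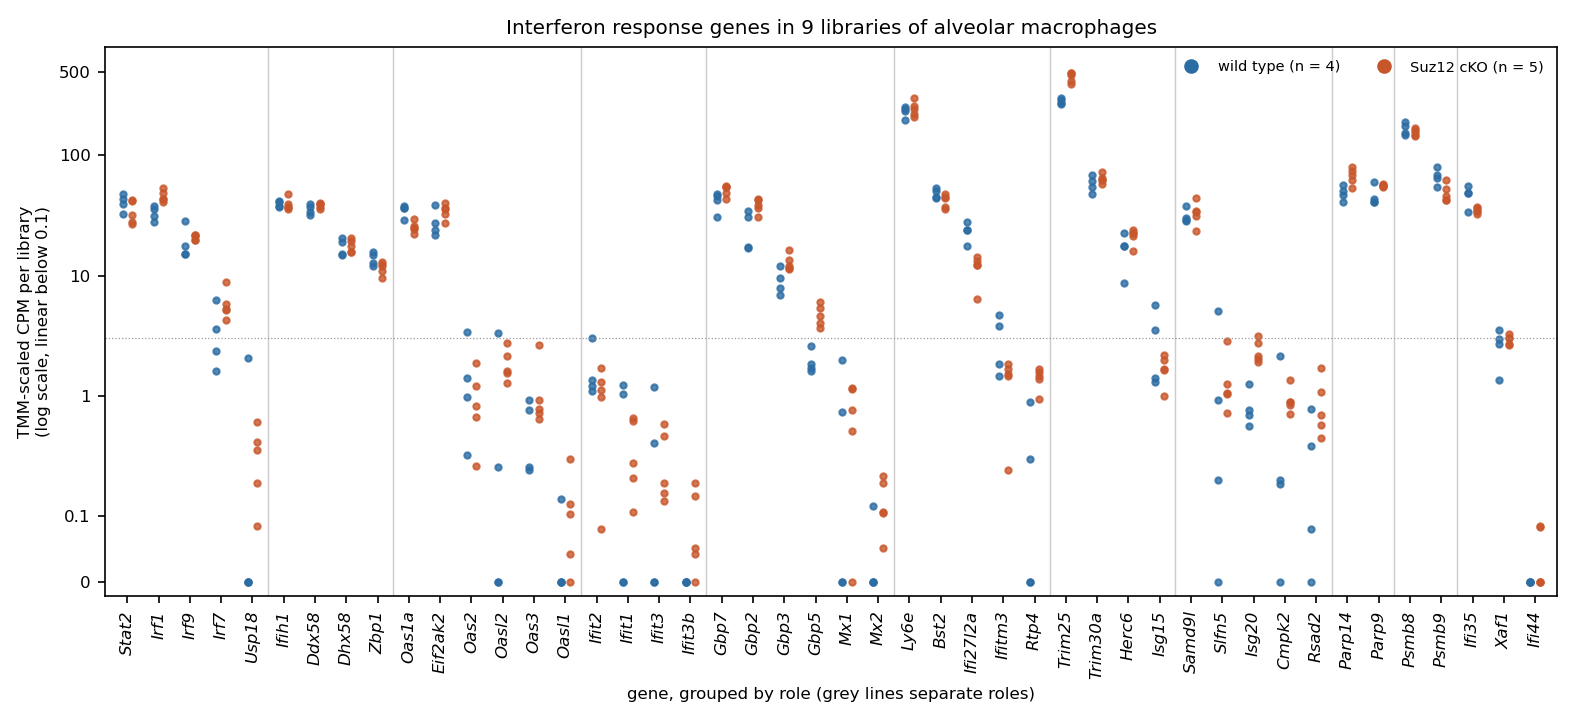
TMM-scaled CPM of each of the 46 genes in each library, on a log axis that is linear below 0.1; blue points are the 4 wild type libraries, orange points the 5 Suz12 cKO libraries, genes are grouped by role, and the dotted line marks 3 CPM. The 46 genes run from no reads (Ifi44 and Ifit3b in wild type) to above 100 CPM (Trim25, Ly6e and Psmb8), and 20 of them lie below 3 CPM on average in both groups.

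The comparison of knockout with wild type asks which of these genes change when Suz12 is deleted. It used edgeR's quasi-likelihood test over 12840 genes that passed the filter, with Benjamini-Hochberg adjustment over all of them and a threshold of 0.05. Of the 46 genes 41 were tested, and Ifit3b, Ifi44, Mx2, Oasl1 and Usp18 were too low. Trim25, Gbp5, Irf1, Parp14, Isg20 and Gbp2 were higher in the knockout, and Ifi27l2a, Oas1a, Psmb9 and Ifi35 were lower. These 10 genes stand beside 19.9% of all tested genes called in either direction, with 8.97% higher and 11% lower, so 6 of 41 were higher and 4 of 41 lower. The same shares stand beside each count of called genes in a role or marker list below. The median log2 fold change of the 41 was 0.12, against 0.038 over all tested genes, with 25 positive and 16 negative. Scaled by library size alone, which moved the median of all genes to 0.15, 8 of the 41 were higher and 1 lower, beside 1966 higher and 1013 lower genes in all. In bulk RNA a loss of cells of one type and a lower amount of RNA per cell cannot be told apart.

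The summed level of the 46 genes was 1388 to 1457 CPM in wild type and 1557 to 1693 CPM in the knockout, so the groups did not overlap. Trim25 alone made up 19.8 ± 1.26% of that sum in wild type (SD, n = 4) and 27.5 ± 1.90% in the knockout (SD, n = 5). Without Trim25 the sums overlapped, at 1096 to 1185 CPM in wild type and 1158 to 1227 CPM in the knockout. The 20 genes below 3 CPM summed to 12.5 to 28.3 CPM in wild type and 17.0 to 26.1 CPM in the knockout, which also overlapped.

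**Figure D2:**
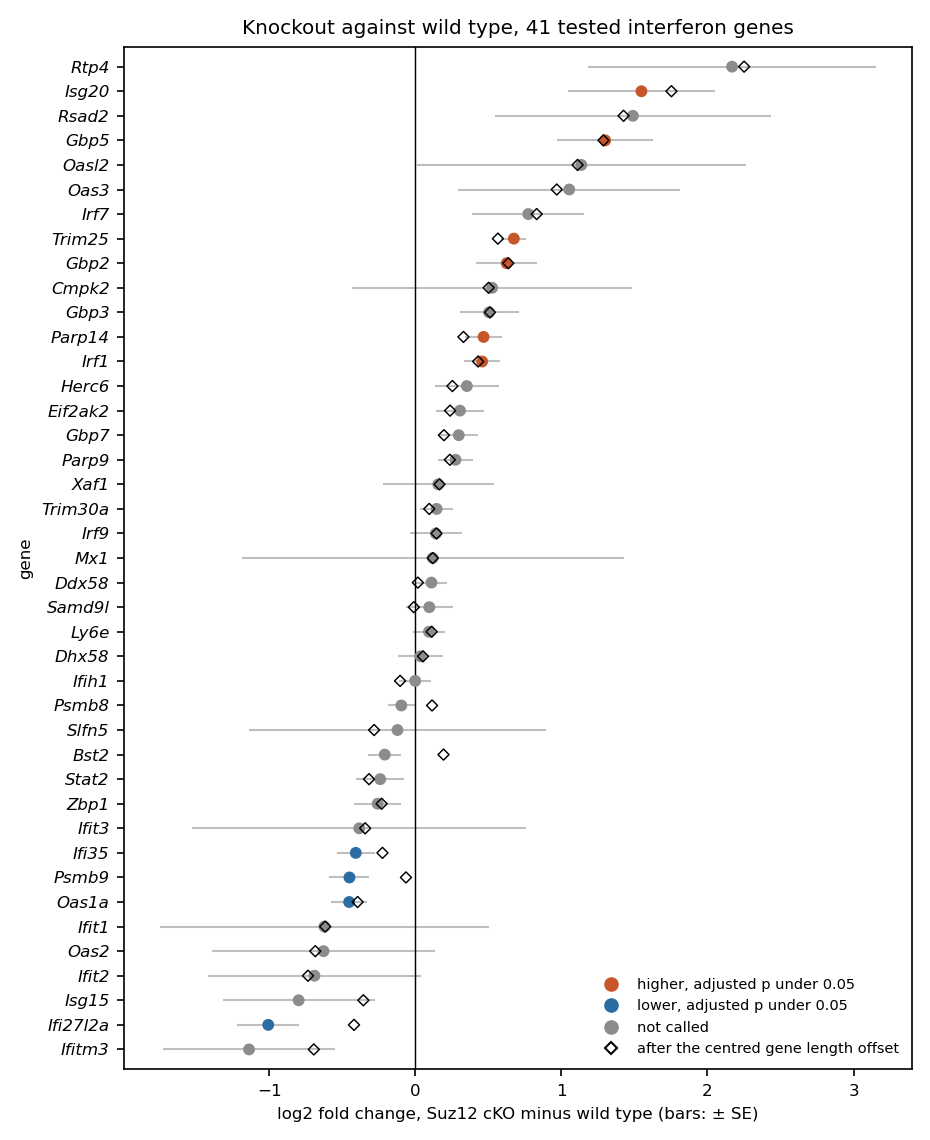
Log2 fold change (knockout minus wild type) of the 41 tested genes with bars of ± 1 SE; orange points were called higher, blue points lower and grey points not called at an adjusted p of 0.05, and open diamonds show the fold change after a correction for gene length. Rtp4 has the highest point, at 2.17, but a wide bar, and the diamonds of Ifi27l2a, Psmb9 and Ifi35 lie nearer to 0 than their points.

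Markers of other cell types were read at low levels, and some of them differed between the groups. The 8 neutrophil markers summed to 42.0 to 52.2 CPM in wild type and 57.0 to 180.3 CPM in the knockout, where library 3 was the highest; 1 of 5 tested, the receptor gene Csf3r, was higher, and Ly6g, Camp and Ngp were too low to test. The 7 interstitial macrophage markers summed to 8.01 to 12.5 CPM in wild type and 18.9 to 26.9 CPM in the knockout, and 1 of 6 tested was higher. Monocyte markers summed to 29.2 to 69.7 CPM in wild type and 13.1 to 53.9 CPM in the knockout, with 1 of 7 lower, Ms4a4c. Conventional dendritic cell markers summed to 6.13 to 22.8 CPM in wild type and 2.43 to 9.17 CPM in the knockout, with a median log2 fold change of -1.13 over the 6 tested; 1 of them, Ccr7, was lower, and lost its call after the length correction. Plasmacytoid dendritic cell markers, from a cell type known for its interferon output, summed to 12.4 to 23.2 and 11.7 to 24.7 CPM, with none of 3 tested called. Markers of endothelium summed to 1.05 to 4.81 and 4.46 to 6.71 CPM, of fibroblasts to 0 to 5.77 and 4.11 to 9.45 CPM, of epithelium to 13.4 to 35.5 and 10.3 to 57.7 CPM and of B cells to 4.09 to 17.7 and 5.62 to 11.1 CPM, with no call among the 16 tested. None of the 8 T and NK cell markers could be tested, and Ncr1 had no read in any library. The part of any of these cells in the changes described here was not tested.

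Gene length also went with the direction of change across the table. Among tested genes at or below the median length of 2714 bases, the median log2 fold change was -0.091, and among longer genes it was 0.13. Of the shorter genes 4.81% were called higher and 17.9% lower, and of the longer ones 13.1% and 4.08%. Of 21 interferon genes at or below that length 2 were higher and 4 lower (median -0.097), and of 20 longer ones 4 were higher and none lower (median 0.30). A fit with a correction for gene length in each library, added after the data were seen, called 15.9% of all tested genes (8.61% higher and 7.32% lower). Under it Trim25, Gbp5, Irf1, Parp14 and Isg20 were higher and Oas1a was lower, while Gbp2, Ifi27l2a, Psmb9 and Ifi35 lost their calls.

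The signalling proteins and transcription factors of the group carry the signal from the receptor to the genes, and 1 of 4 tested changed. Irf1, a transcription factor induced by interferon gamma through its GAS (Entrez gene 16362, chr11:53770014-53778374 in GRCm38.p6, as for all positions here), was at 38.1, 36.1, 28 and 31.4 CPM in wild type libraries 1 to 4. In knockout libraries 1 to 5 it was at 43.5, 43.0, 53.1, 41 and 48.7 CPM, so that every knockout library lay above every wild type one. The log2 fold change was 0.46 ± 0.12 (SE), adjusted p = 0.0176, and 0.43 after the length correction (adjusted p = 0.0266). It was called when any single library was left out, but not with the replicate number as a block over libraries 1 to 4 of each group (adjusted p = 0.0744). Stat2 and Irf9 are partners in the ISRE-binding complex. Stat2 was at 32.4 to 47.4 CPM in wild type and 26.8 to 42.7 CPM in the knockout (log2 fold change -0.24 ± 0.16 (SE), adjusted p = 0.340). Irf9 was at 15.2 to 28.2 CPM in wild type and 19.8 to 21.9 CPM in the knockout, with wild type library 3 the highest of all 9; its log2 fold change was 0.14 ± 0.18 (SE), adjusted p = 0.633, and 0.39 with an adjusted p of 0.0361 without that library. Irf7, which amplifies type I interferon production, was at 1.6 to 6.25 CPM in wild type and 4.27 to 8.89 CPM in the knockout (log2 fold change 0.77 ± 0.38 (SE), adjusted p = 0.183). Without wild type library 2, the highest of its group, the fold change of Irf7 was 1.25 with an adjusted p of 0.0270. Usp18, a brake on the receptor, was read in wild type library 3 only within its group, at 2.07 CPM, and at 0.0846 to 0.606 CPM in the knockout. Without that library, when no wild type read was left, it was called higher with an adjusted p of 0.0371.

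None of the 4 nucleic acid sensors changed past the threshold. Ifih1, which encodes the long double-stranded RNA sensor MDA5 and had the highest mean CPM of the 4, was at 37.9, 42.0, 37.4 and 41 CPM in wild type. It was at 36.2, 37.4, 47.6, 37.2 and 39.4 CPM in the knockout, within or near the wild type range except in library 3, the highest of all 9. Its log2 fold change was -0.0019 ± 0.11 (SE), adjusted p = 0.993, the value nearest to 0 among the tested interferon genes. Ddx58, which encodes the RNA sensor RIG-I, was at 32.1 to 39.7 CPM in wild type and 36.0 to 40.4 CPM in the knockout (log2 fold change 0.11 ± 0.11 (SE), adjusted p = 0.520). Dhx58, which encodes their relative LGP2, had a log2 fold change (with SE) of 0.035 ± 0.15, adjusted p = 0.904. Zbp1, a sensor of Z-form nucleic acid that can trigger necroptosis, had one of -0.26 ± 0.16 (SE), adjusted p = 0.305.

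Among the OAS family and the double-stranded RNA kinase PKR, 1 of 5 tested genes changed. The active enzymes of the OAS family make the short oligoadenylates that switch on RNase L. Oas1a (Entrez gene 246730, chr5:120896256-120907544) was at 36.5, 37.8, 36.3 and 28.9 CPM in wild type and 25.1, 26.1, 24.3, 22.1 and 29.6 CPM in the knockout. Wild type library 4 and knockout library 5 overlapped, and the other 3 wild type libraries lay above every knockout library. The level fell by 0.45 ± 0.13 (SE) on the log2 scale (adjusted p = 0.0197), and the length-corrected fold change was -0.40 (adjusted p = 0.0490). Without wild type library 1 the adjusted p was 0.0533. Oas1a belongs to a cluster of near-identical paralogs whose reads the counting may split; one of them, Oas1g, had a log2 fold change (with SE) of -0.52 ± 0.21, adjusted p = 0.105. Eif2ak2, which encodes PKR, was at 22 to 38.3 CPM in wild type and 27.4 to 40.3 CPM in the knockout (log2 fold change 0.31 ± 0.17 (SE), adjusted p = 0.229). Without wild type library 2, the second highest of the 9, its fold change was 0.50 with an adjusted p of 0.0261, and its span overlaps Gm6548, read at 376 CPM on average. Oas2, Oas3 and Oasl2 were low: Oas2 had a log2 fold change of -0.63 ± 0.76, Oas3 of 1.05 ± 0.76 and Oasl2 of 1.14 ± 1.13 (SE). Oasl2 had no read in wild type libraries 1 and 2 and 3.34 CPM in library 3, against 1.27 to 2.74 CPM in the knockout; without wild type library 3 its fold change was 4.42 with an adjusted p of 0.00871, and limma-voom also called it, at 3.91 (adjusted p = 0.0339). Oasl1 was not tested, with 3 reads in wild type and 21 in the more deeply read knockout group. Its mean was 0.034 CPM in wild type and 0.11 CPM in the knockout.

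No IFIT gene changed past the threshold among the 3 tested. These genes encode proteins that bind viral RNA lacking the host's cap modifications, and they are among the strongest responders to type I interferon. Ifit2, the highest of them, was at 1.10, 3.01, 1.19 and 1.35 CPM in wild type and 1.31, 0.970, 0.0801, 1.71 and 1.11 CPM in the knockout, with a log2 fold change (with SE) of -0.69 ± 0.73, adjusted p = 0.564. Wild type library 2 was the highest and knockout library 3 the lowest, and the other 7 libraries shared a range. Ifit1 was read in wild type libraries 2 and 4 but not in 1 and 3, and at 0.107 to 0.648 CPM in the knockout. Ifit3 followed the same split in wild type, at 0.401 and 1.18 CPM in libraries 2 and 4. Ifit3b was read in the knockout only, with 17 reads in all, a mean of 0.086 CPM. The knockout group had more libraries and more reads in all than wild type. Since Ifit3b is a near-copy of Ifit3, the split of reads between the pair is uncertain. At these counts differences of the size of the standard errors, 0.73 to 1.14 on the log2 scale, were not detectable. Larger differences could be missed as well: in the same comparison Rtp4 missed the threshold at 2.17 ± 0.99 (SE).

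All 5 tested large GTPases had positive fold changes and 2 of them rose; the signs of Gbp7 and Mx1 turned under a length correction that also moved the median of all genes, and that of Mx1 turned when single libraries were left out. Guanylate-binding proteins are induced above all by interferon gamma and coat vacuoles and bacteria. Gbp5 (Entrez gene 229898, chr3:142496934-142522344), which promotes inflammasome activation, was at 1.69, 1.6, 1.83 and 2.57 CPM in wild type and 3.64, 4.58, 6.06, 4.04 and 5.37 CPM in the knockout. Every knockout library lay above every wild type library, with a log2 fold change (with SE) of 1.30 ± 0.33, adjusted p = 0.0129 (1.29 after the length correction). It was called when any single library was left out, but not with the replicate number as a block over libraries 1 to 4 of each group (adjusted p = 0.107). Gbp2 (Entrez gene 14469, chr3:142620663-142638008) was at 17.2, 34.7, 16.9 and 30.7 CPM in wild type and 42.9, 38.8, 43.7, 36.4 and 30.8 CPM in the knockout. Wild type fell into a low pair, libraries 1 and 3, and a high pair, libraries 2 and 4, of which library 2 lay inside the knockout range. Its log2 fold change was 0.62 ± 0.21 (SE), adjusted p = 0.0481; the call was lost after the length correction (adjusted p = 0.0578) and without any one of wild type libraries 1 and 3 and knockout libraries 1 to 4 (adjusted p from 0.0738 to 0.127). Gbp3 and Gbp7 stand between Gbp5 and Gbp2 on chromosome 3, in that stretch of 4 neighbours. Gbp3 was at 6.95 to 12.0 CPM in wild type and 11.4 to 16.2 CPM in the knockout (log2 fold change 0.50 ± 0.20 (SE), adjusted p = 0.0979; without wild type library 1, 0.68 and adjusted p = 0.0380). Gbp7 was at 30.5 to 47.8 CPM in wild type and 43.7 to 55.3 CPM in the knockout (log2 fold change 0.30 ± 0.13 (SE), adjusted p = 0.141). Mx1, also a gene of the large GTPases, was read in wild type libraries 1 and 3 only of its group, and its log2 fold change was 0.12 ± 1.31 (SE), adjusted p = 0.963. Mx2 had 3 reads in wild type and 27 in the knockout, which had more libraries and more reads in all. Its mean was 0.030 CPM in wild type and 0.13 CPM in the knockout, and it was not tested.

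Among the 5 membrane-associated effectors 1 changed, in the direction opposite to the GTPases. Ifi27l2a (Entrez gene 76933, chr12:103433873-103443680), a small membrane protein of the ISG12 family, was at 24.1, 17.7, 28.1 and 23.9 CPM in wild type. It was at 14.1, 12.1, 6.36, 12.2 and 13.3 CPM in the knockout, so every knockout library lay below every wild type one, and library 3 was the lowest. It fell by 1.01 ± 0.21 (SE) on the log2 scale (adjusted p = 0.00452), a call that stood when any single library was left out. At 463 bases it is one of the shortest genes of the group, and the length-corrected fold change was -0.42 (adjusted p = 0.220). Its annotated span overlaps Ifi27, read at 51.7 CPM on average. Whether the exons of the pair overlap was not examined and the strand setting is not stated, so whether they share reads is unknown. Rtp4, a chaperone that dampens type I interferon, was read at 0.881 and 0.295 CPM in wild type libraries 2 and 4 and not in 1 and 3. It was at 1.37, 1.46, 1.58, 0.933 and 1.65 CPM in the knockout, above wild type throughout, but its log2 fold change (with SE) of 2.17 ± 0.99, adjusted p = 0.146, missed the threshold; without wild type library 2 the adjusted p was 0.0254, and limma-voom gave 3.40 (adjusted p = 0.0359). Ly6e, which restricts coronavirus entry, was at 196 to 254 CPM in wild type and 208 to 302 CPM in the knockout (log2 fold change 0.092 ± 0.11 (SE), adjusted p = 0.620). Bst2, tetherin, which holds budding virus at the surface, had a log2 fold change (with SE) of -0.21 ± 0.11, adjusted p = 0.228, and of 0.19 after the length correction. Ifitm3, a block to virus entry in endosomes, was at 1.46 to 4.69 CPM in wild type and 0.240 to 1.84 CPM in the knockout (log2 fold change -1.14 ± 0.59 (SE), adjusted p = 0.201), with knockout library 3 far below the other 4.

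Trim25 was the clearest change of the group, and the only 1 of the 4 tested genes of ISG15 and its ubiquitin ligases to pass. It encodes a ubiquitin and ISG15 ligase that activates RIG-I (Entrez gene 217069, chr11:88999403-89020294). Wild type libraries were at 269, 299, 292 and 272 CPM and knockout libraries at 419.6, 489, 466, 394 and 488 CPM. The lowest knockout library lay above the highest wild type library, at a level 1.59 times that of wild type on average. It rose by 0.67 ± 0.085 (SE) on the log2 scale (adjusted p = 0.000174) and by 0.56 after the length correction (adjusted p = 0.000337). It was the 1 interferon gene called higher in every alternative and every fit with a library left out. Isg15, the ubiquitin-like protein that such ligases attach, ranged from 1.31 to 5.65 CPM in wild type and 0.997 to 2.16 CPM in the knockout, with wild type libraries 1 and 3 above every knockout library and 2 and 4 within their range (log2 fold change -0.80 ± 0.52 (SE), adjusted p = 0.323). Herc6, the main ISG15 ligase of the mouse, had a log2 fold change (with SE) of 0.35 ± 0.22, adjusted p = 0.299. Trim30a, a negative regulator of NF-kappaB signalling from a family of close paralogs, had one of 0.14 ± 0.12 (SE), adjusted p = 0.427.

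Of 5 effectors that act on nucleotides and nucleic acids, 1 changed. Isg20 (Entrez gene 57444, chr7:78913396-78920396), an exonuclease that degrades single-stranded RNA, was at 0.685, 1.24, 0.557 and 0.758 CPM in wild type and 2.13, 3.15, 2.75, 2.02 and 1.92 CPM in the knockout. The groups did not overlap, but the level was low, with 7 to 31 reads per wild type library. Its log2 fold change was 1.55 ± 0.50 (SE), adjusted p = 0.0429 (1.75 after the length correction, adjusted p = 0.0322). The call was lost when any one of the 5 knockout libraries or of wild type libraries 1 and 4 was left out, with an adjusted p from 0.0626 to 0.144, and also with limma-voom (0.0658) and without a filter on low counts (0.0663). Samd9l, a restriction factor that halts translation, was at 28.2 to 37.9 CPM in wild type and 23.6 to 44.3 CPM in the knockout (log2 fold change 0.095 ± 0.16 (SE), adjusted p = 0.737). Rsad2, the antiviral enzyme viperin, and Cmpk2, its neighbour, a mitochondrial nucleotide kinase, were below 1 CPM on average in both groups; Rsad2 had a log2 fold change of 1.49 ± 0.94 and Cmpk2 of 0.52 ± 0.96 (SE). Slfn5, a Schlafen family protein, was at 5.09 CPM in wild type library 3 and below 1 CPM in the other 3, and its log2 fold change of -0.12 ± 1.02 was 1.89 without that library, also short of the threshold.

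The ADP-ribosyltransferases Parp14 and Parp9 form a pair of neighbouring genes on chromosome 16, and 1 of the pair changed. Parp14 (Entrez gene 547253, chr16:35831892-35871518), which modifies proteins in macrophage signalling, was at 47.2, 56.8, 41.3 and 50.3 CPM in wild type and 68.7, 74.0, 53.2, 62.3 and 79.9 CPM in the knockout. The groups overlapped only through knockout library 3 and wild type library 2. It rose by 0.47 ± 0.13 (SE) on the log2 scale (adjusted p = 0.0195) and by 0.33 after the length correction (adjusted p = 0.0458). The adjusted p was 0.0502 without wild type library 1, 0.0544 without knockout library 2 and 0.0586 without knockout library 5. Parp9, which works with the ubiquitin ligase Dtx3l, was at 40.7 to 60.7 CPM in wild type and 54.5 to 58.4 CPM in the knockout (log2 fold change 0.27 ± 0.12 (SE), adjusted p = 0.133). Wild type library 4, at 60.7 CPM, was the highest of all 9 and the other 3 wild type libraries the lowest; without it the fold change was 0.44 with an adjusted p of 0.00894. The span of Parp9 overlaps that of Dtx3l, and without a stated strand setting reads at any shared exon bases may not be assignable to one of them.

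The immunoproteasome subunits Psmb8 and Psmb9 replace constitutive catalytic subunits of the proteasome, and 1 of them was lower. Psmb9 (Entrez gene 16912, chr17:34182030-34187330) was at 65.5, 54.2, 80.8 and 68.5 CPM in wild type and 52.3, 42.2, 62.1, 46 and 42.8 CPM in the knockout, with overlap through wild type library 2 and knockout library 3. It fell by 0.45 ± 0.14 (SE) on the log2 scale (adjusted p = 0.0315). After the length correction its fold change was -0.065 (adjusted p = 0.728), and the call was also lost without any one of wild type libraries 1, 3 and 4 and knockout libraries 1, 2, 4 and 5 (adjusted p from 0.0502 to 0.0960). Psmb8 was at 149 to 190.3 CPM in wild type and 144 to 169.7 CPM in the knockout (log2 fold change -0.097 ± 0.093 (SE), adjusted p = 0.519; 0.11 after the length correction). The 3 constitutive subunits Psmb5, Psmb6 and Psmb7 were all lower in the knockout, by 0.67 ± 0.13, 0.81 ± 0.11 and 0.43 ± 0.099 (SE) on the log2 scale, and Psmb7 lost its call after the length correction. Per kilobase, Psmb8 stood at 0.758 to 1.26 times Psmb5 in wild type and 1.39 to 1.73 times in the knockout. Psmb9 stood at 0.416 to 0.453 times Psmb6 in wild type and 0.464 to 0.664 times in the knockout. Neither ratio overlapped between the groups, which shows that the 2 subunits of each pair changed unequally within libraries.

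The remaining genes are Ifi35, Xaf1 and Ifi44, and 1 of the 2 tested changed. Ifi35 (Entrez gene 70110, chr11:101448412-101458701), a partner of the protein Nmi, was at 48.4, 34.1, 55.6 and 48.2 CPM in wild type and 36.3, 34.6, 36.9, 32.5 and 34.7 CPM in the knockout. Wild type library 2 lay within the narrow knockout range and the other 3 above it. It fell by 0.41 ± 0.13 (SE) on the log2 scale (adjusted p = 0.0400). The length-corrected fold change was -0.23 (adjusted p = 0.206), and the call held only without wild type library 2 or knockout library 3 among the 9 fits that leave out a library; in the other 7 the adjusted p was 0.0666 to 0.104. It was also lost with limma-voom (0.0609) and without a filter on low counts (0.0507). Xaf1, which promotes apoptosis, had a log2 fold change (with SE) of 0.16 ± 0.38, adjusted p = 0.818. Ifi44 had no read in wild type and 8 reads in the more deeply read knockout group, a mean of 0.034 CPM there, and was not tested.

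**Figure D3:**
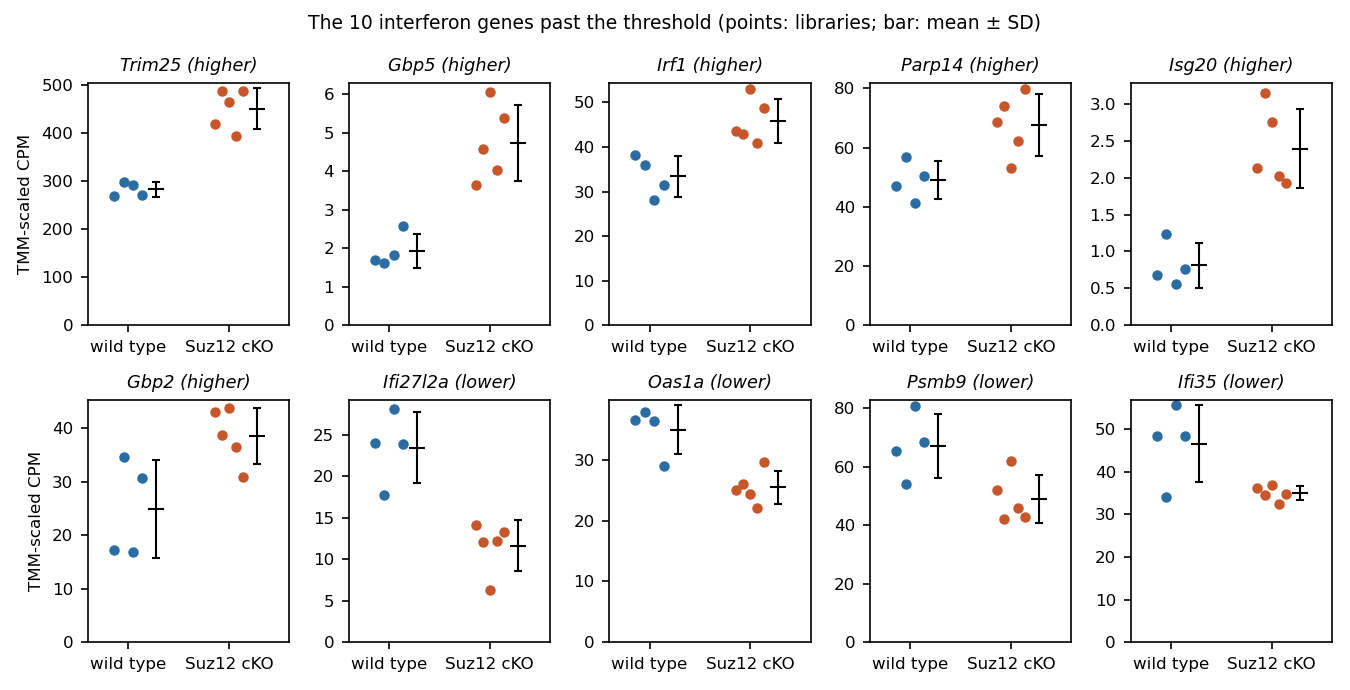
TMM-scaled CPM of the 10 called interferon genes, 1 point per library (blue wild type, n = 4; orange Suz12 cKO, n = 5), with the mean ± SD of each group beside the points and all axes starting at 0. The groups do not overlap for Trim25, Gbp5, Irf1, Isg20 and Ifi27l2a, and overlap for the other 5.

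Non-overlap of the groups is a count that needs no model. Every knockout library lay above every wild type library for Trim25, Gbp5, Irf1, Isg20 and Rtp4, and below for Ifi27l2a, which is 5 and 1 of 41. Over all tested genes 10.9% were placed above and 9.87% below in this way. The low genes were imprecise: the standard error of the log2 fold change had a median of 0.94 over the 15 tested genes below 3 CPM in both groups, and of 0.13 over the 23 at 10 CPM or more. Of those 15 genes 1 was called, Isg20, and of those 23 genes 8 were called, 4 in each direction. Over all tested genes 19.9% were called, 8.97% higher and 11% lower. The share among all genes at a like level was not computed.

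The 20 genes below 3 CPM in both groups did not all peak in the same library, 6 being highest in wild type library 3 and 4 in knockout library 2. Some shared a pattern: Ifit1, Ifit3 and Rtp4 were read in wild type libraries 2 and 4 but not in 1 and 3. No correlation between genes was computed. Wild type library 3, with the fewest reads, held the highest level among the 9 libraries for Ifi27l2a, Ifi35, Isg15, Irf9, Mx1, Oas2, Oasl2, Usp18, Slfn5 and Psmb9, and among the tested genes it had no read for Ifit1, Ifit3, Rsad2, Cmpk2 and Rtp4. Of the 41 tested genes 22% were highest in that library, against 20.3% of all tested genes. Wild type library 4 was the highest of the 9 for Ifit1, Ifit3, Cmpk2, Parp9 and Psmb8. In the knockout, library 3 was the lowest of the 5 for 17 of the 46 genes, among them Ifit1, Ifit2, Ifit3, Ifitm3, Ifi27l2a and Mx1, while it was the highest of all 9 for Irf1, Gbp2, Gbp5, Ifih1, Dhx58 and Ly6e. Among the knockout libraries it also had the lowest sum of monocyte markers, 13.1 CPM against 36.1 to 53.9 CPM in the other 4. Its sums of conventional and plasmacytoid dendritic cell, T and NK cell, epithelium and fibroblast markers were the lowest of the group as well. Its sums of alveolar macrophage and neutrophil markers were the highest of the group, at 42157.8 and 180.3 CPM. The part of any of these cells in the values was not tested. Leaving out knockout library 3 gave 4 interferon genes higher and 4 lower, with Gbp2 and Isg20 losing their calls.

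**Figure D4:**
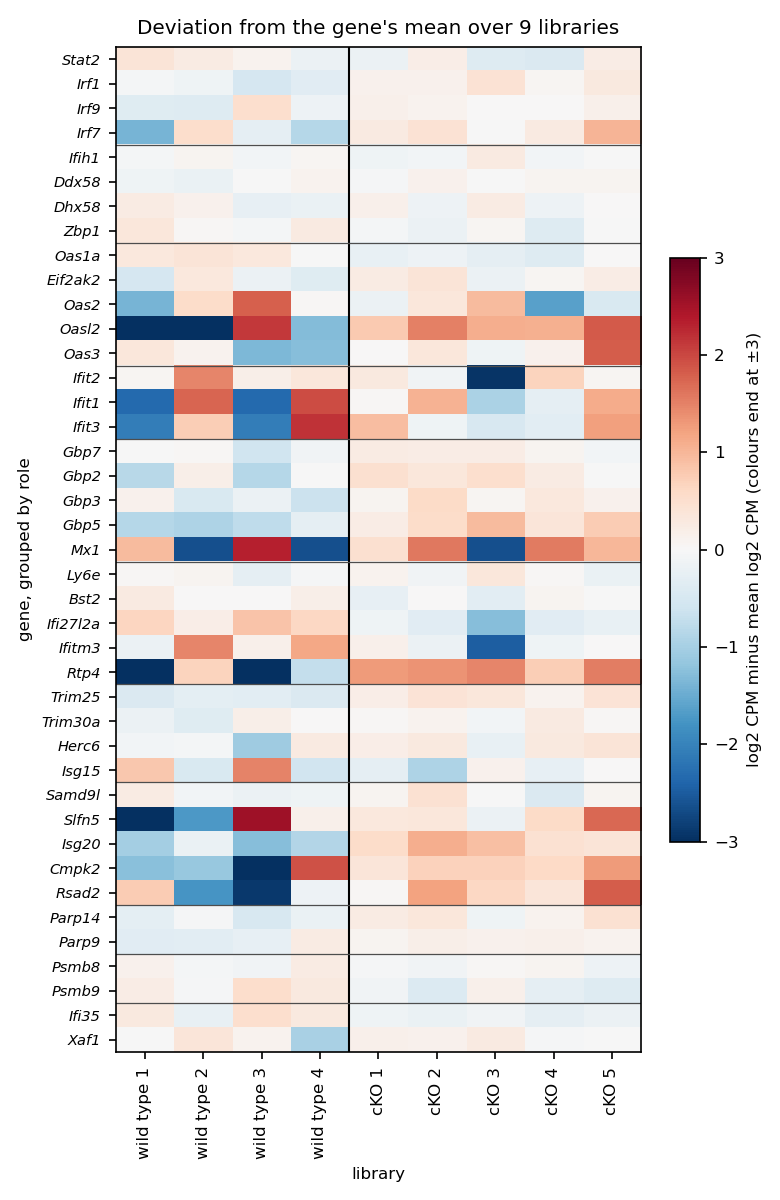
Deviation of each tested interferon gene from its mean log2 CPM over the 9 libraries, with genes in rows by role and libraries in columns (4 wild type left of the line, 5 Suz12 cKO right of it); red is above and blue below the mean, and the colours end at 3 on the log2 scale. Trim25 and Gbp5 are blue in every wild type column and red in every knockout column, while Ifit1, Ifit3, Oasl2, Mx1 and Slfn5 differ most between libraries of the same group.

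Genes with ISRE or GAS matches were found among both the higher and the lower ones. Over all tested genes 8.97% were higher and 11% lower. Of 18 tested genes with an ISRE match, 2 were higher (Gbp2 and Gbp5) and 1 lower (Oas1a), with a median log2 fold change of 0.054. Of 14 tested genes whose windows held none, 3 were higher and 2 lower, with a median of 0.25. Among the 11 with a GAS match, all tested, Gbp5, Irf1 and Isg20 were higher and Oas1a and Ifi35 lower, with a median of -0.097. Trim25 and Psmb9 held neither run of letters in these windows, and Parp14 and Ifi27l2a had no window. Ifit1, Ifit3 and Isg15, whose ISRE stretches are printed, averaged below 3 CPM in both groups, while Oas1a, with such a match as well, averaged 34.9 CPM in wild type.

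The wider pathway that makes and passes on the interferon signal was represented by 45 listed genes, of which 34 were tested. Of the 34, 8 were higher and 1 was lower, with a median log2 fold change of 0.13, beside 8.97% higher and 11% lower and a median of 0.038 over all tested genes. No receptor gene of 5 tested changed. Ifnar1 averaged 47.2 ± 3.92 CPM in wild type (SD, n = 4) and 52.6 ± 2.94 CPM in the knockout (SD, n = 5), with a log2 fold change (with SE) of 0.16 ± 0.096, adjusted p = 0.284. Ifnar2 had a log2 fold change (with SE) of 0.27 ± 0.14, adjusted p = 0.208, and Ifngr1 one of 0.035 ± 0.11 (SE), adjusted p = 0.863. Of the 5 JAK and STAT genes 2 were higher. Jak1, the kinase shared by type I and type II receptors, averaged 199 ± 26.1 CPM in wild type (SD, n = 4) and 263 ± 8.44 CPM in the knockout (SD, n = 5), and Jak2, the kinase of Ifngr2, 48.9 ± 5.90 CPM in wild type (SD, n = 4) and 68.7 ± 8.79 CPM in the knockout (SD, n = 5); neither overlapped between the groups. The log2 fold change was 0.40 ± 0.092 (SE), adjusted p = 0.00739, for Jak1 and 0.49 ± 0.12 (SE), adjusted p = 0.00936, for Jak2. Tyk2, the other kinase of the type I receptor, had a log2 fold change (with SE) of 0.081 ± 0.089, adjusted p = 0.579, and of -0.0065 after the length correction.

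None of 5 other interferon regulatory factors passed. Irf5, which acts downstream of Toll-like receptors, had a log2 fold change (with SE) of 0.34 ± 0.12, adjusted p = 0.0569, and was called higher after the length correction, at 0.36 (adjusted p = 0.0456). Irf3, which turns on the interferon beta gene, had a log2 fold change (with SE) of -0.26 ± 0.10, adjusted p = 0.0900, with every knockout library below every wild type one, and Irf8, a factor of the macrophage lineage, one of 0.0044 ± 0.089 (SE), adjusted p = 0.980. Among 12 sensors and adaptors of interferon induction 3 were higher and 1 lower, beside 8.97% and 11% of all tested genes. Ikbke, an interferon-inducible kinase that phosphorylates Irf3 and Irf7, averaged 11.3 ± 4.08 CPM in wild type (SD, n = 4) and 25.8 ± 8.69 CPM in the knockout (SD, n = 5) (log2 fold change 1.20 ± 0.26 (SE), adjusted p = 0.00561), and its relative Tbk1 63.7 ± 4.61 CPM in wild type (SD, n = 4) and 78.2 ± 4.05 CPM in the knockout (SD, n = 5) (log2 fold change 0.30 ± 0.085 (SE), adjusted p = 0.0248). Aim2, the inflammasome sensor of cytosolic DNA, averaged 49.0 ± 9.80 CPM in wild type (SD, n = 4) and 64.1 ± 1.90 CPM in the knockout (SD, n = 5) (log2 fold change 0.39 ± 0.12 (SE), adjusted p = 0.0389). Tlr7, the endosomal receptor for single-stranded RNA, fell by 0.44 ± 0.091 (SE) on the log2 scale, and averaged 148 ± 11.2 CPM in wild type (SD, n = 4) and 109 ± 10.7 CPM in the knockout (SD, n = 5) (adjusted p = 0.00359).

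Among 7 brakes on the signal 3 were higher, beside 8.97% of all tested genes. Socs1, which blocks JAK kinases and is itself induced by interferon, averaged 1.87 ± 0.923 CPM in wild type (SD, n = 4) and 5.11 ± 1.99 CPM in the knockout (SD, n = 5) (log2 fold change 1.45 ± 0.43 (SE), adjusted p = 0.0291). The phosphatases Ptpn2, which removes phosphate from JAK and STAT proteins, and Ptpn11 averaged 49.4 ± 9.08 and 77.8 ± 12.9 CPM in wild type (SD, n = 4), with log2 fold changes of 0.43 ± 0.13 and 0.41 ± 0.11 (SE). Ptpn2 lost its call after the length correction (adjusted p = 0.117). Jak1, Jak2, Ikbke, Tlr7 and Ptpn11 were called when any single library was left out. Jak2 lost its call with the replicate number as a block (adjusted p = 0.0503). Calls were lost for Tbk1 without wild type library 4 or knockout libraries 1 or 5 (adjusted p 0.0513 to 0.0603) and for Socs1 without wild type libraries 1 or 4 or knockout libraries 2, 4 or 5 (0.0713 to 0.0864). They were lost for Aim2 without wild type libraries 3 or 4 or any knockout library (0.0618 to 0.0851) and for Ptpn2 without wild type libraries 3 or 4 or knockout libraries 1, 2, 4 or 5 (0.0501 to 0.0743).

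**Figure D5:**
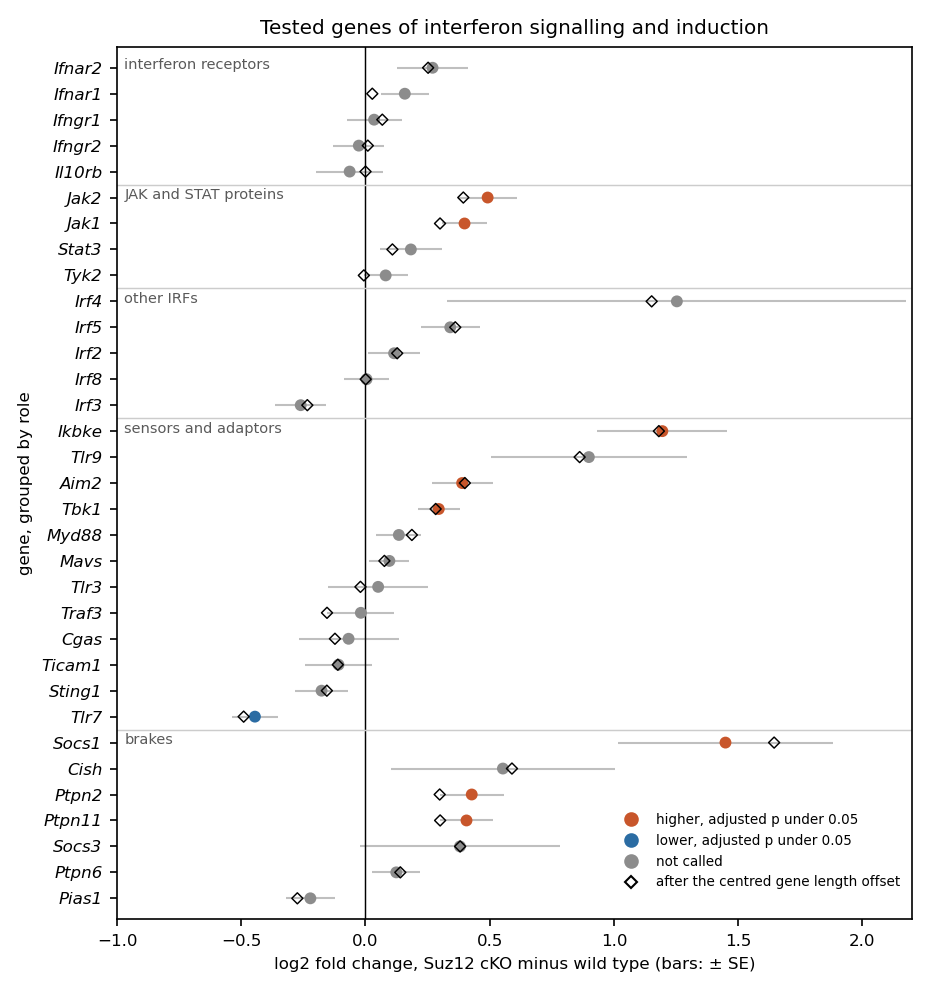
Log2 fold change (knockout minus wild type) with bars of ± 1 SE for 33 of the 34 tested genes of interferon signalling and induction, grouped by role; orange is higher, blue lower and grey not called at an adjusted p of 0.05, and open diamonds are values after the length correction. The receptors are all grey, and Ikbke and Socs1 are the called genes with the highest points, at 1.20 and 1.45.

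A further 61 interferon-induced genes were listed, and of 54 tested 2 were higher and 4 lower, beside the same 8.97% and 11% of all tested genes, with a median log2 fold change of 0.044. After the length correction 3 were higher and 2 lower. Cd274, which encodes the inhibitory ligand PD-L1 and is induced by interferon gamma, averaged 168 ± 11.0 CPM in wild type (SD, n = 4) and 245 ± 24.1 CPM in the knockout (SD, n = 5). It rose by 0.54 ± 0.09 (SE) on the log2 scale (adjusted p = 0.000924), without overlap between the groups. Gbp9, another guanylate-binding protein, averaged 1.43 ± 0.746 CPM in wild type (SD, n = 4) and 4.38 ± 1.47 CPM in the knockout (SD, n = 5) (log2 fold change 1.59 ± 0.45 (SE), adjusted p = 0.0215), a call lost without knockout libraries 1, 2 or 5 (adjusted p 0.0567 to 0.0773). B2m, the light chain of MHC class I, was lower, with a log2 fold change (with SE) of -0.31 ± 0.071, adjusted p = 0.00717, and of 0.038 after the length correction. Ifi47, an immunity-related GTPase, averaged 8.16 ± 0.570 CPM in wild type (SD, n = 4) and 4.16 ± 1.10 CPM in the knockout (SD, n = 5) and fell by 0.97 ± 0.25 (SE) on the log2 scale (adjusted p = 0.0146). Ms4a4c, which is also one of the monocyte markers, had a log2 fold change (with SE) of -3.11 ± 0.83, adjusted p = 0.0174; wild type library 3 was at 5.09 CPM and the other 3 at 1.12 to 1.28 CPM, against 0.0534 to 0.518 CPM in the knockout. The adjusted p of Ms4a4c was 0.0581 without wild type library 3 and 0.0507 without knockout library 1. The fourth lower gene was Psme2, a proteasome activator subunit, with a log2 fold change of -0.39, and it lost its call after the length correction (-0.092, adjusted p = 0.490). Its partner Psme1, at 0.018, was called higher under that correction (0.32, adjusted p = 0.0188).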

How the data were processed

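Per the labels, polyadenylated RNA was made into TruSeq libraries and sequenced as single-end reads of 85 bases. The authors deposited whole-number read counts per Entrez gene with gene lengths, made with featureCounts on build mm10 per the submitters' processing notes; the sources used here name no version, aligner or strand setting. The 9 single tables held the same counts as the joint table. Symbols came from RefSeq (GRCm38.p6): 25275 of the 27179 identifiers matched and 1904 did not.

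Groups came from the genotype labels. The counts were filtered (filterByExpr), TMM-scaled and tested over all 9 libraries with edgeR 4.0.16 (robust quasi-likelihood fit, no covariate; R 4.3.3), with Benjamini-Hochberg adjustment over 12840 genes and a threshold of 0.05; log2 CPM used a prior count of 2. The code was tested on simulated data. Alternatives were DESeq2 1.42.0, limma-voom 3.58.1, other scalings and filters, per-library loess offsets on log gene length (centred to keep the scaling, or not), a replicate block and each library left out. Per kilobase levels used the deposited lengths.

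The genes and lists were chosen with earlier results of these data known. Values in every library are given for each interferon gene past the threshold and, in roles without one, for the gene with the highest mean CPM; pathway genes past the threshold and 7 fixed ones, and the 3 called genes of smallest adjusted p in each direction among other induced genes, are named with values, and a gene named beyond this was chosen after its values were seen. No set test was made. Some listed genes are not reported here. Replicates number 4 and 5, and depth was 13814799 to 45606001 counts. Protein sequences were not used here.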

Additional observations from a re-analysis of the deposited data

Results flagged for a closer look

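Within each group of 4 or 5 libraries, the highest or lowest value on the log2 scale was compared with its nearest neighbour by Dixon's criterion over 65 named genes, or 130 groups, and 9 stood apart where chance gives about 6.5. Knockout library 3 accounts for 4 of them, all at the low end. It held Ifi27l2a at 6.36 CPM against 12.1 to 14.1 CPM in the other 4 knockout libraries, and Ifit2 at 0.0801 CPM against 0.970 to 1.71 CPM. Ifitm3 was at 0.240 CPM there against 1.46 to 1.84 CPM, and Mx1 at 0 CPM against 0.507 to 1.16 CPM. Wild type library 4 was low for Oas1a, at 28.9 CPM against 36.3 to 37.8 CPM in the other 3, and high for Parp9, at 60.7 CPM against 40.7 to 43.6 CPM. Wild type library 3 held Ms4a4c at 5.09 CPM against 1.12 to 1.28 CPM. Knockout library 5 held Oas3 at 2.63 CPM against 0.641 to 0.917 CPM, and knockout library 4 held Tyk2 at 93.9 CPM against 112 to 117 CPM.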

How the results depend on the processing

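The 41 tested interferon genes gave 6 higher and 4 lower calls with TMM, and the same counts with DESeq2, with DESeq2's size factors in edgeR and with a stricter filter. Limma-voom gave 7 higher and 3 lower, with Oasl2 and Rtp4 gained and Isg20 and Ifi35 lost, and no filter on low counts gave 5 and 3, with Isg20 and Ifi35 lost. Of 1220 values recomputed, 1026 kept their direction and their side of the threshold and 62 turned in sign; 118 lost a call and 17 gained one, 3 of them among those that turned. The cause was not tested. Trim25 was called in every fit, and Gbp5, Irf1 and Ifi27l2a in each fit with 1 library left out. The median log2 fold change of the interferon genes was 0.073 to 0.17 with a library left out, with 3 to 9 higher (9 without wild type library 2) and 1 to 4 lower (1 without wild type library 1); over all genes 772 to 1434 were higher and 1074 to 1521 lower. With library sizes alone, 1966 of all genes were higher and 1013 lower, the median of all genes moved from 0.038 to 0.15, and 8 interferon genes were higher (Gbp3 and Parp9 gained) and 1 lower. With the length offset centred, 1106 of all genes were higher and 940 lower, and 5 interferon genes were higher and 1 lower. Not centred, the offset moved the median of all genes to -0.20, with 468 genes higher and 3131 lower, and 3 interferon genes higher and 6 lower, of which Ifih1, Stat2 and Zbp1 had no call in the main comparison.

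Same-numbered libraries of the 2 groups had correlations of their deviations of 0.036, 0.032, -0.057 and 0.11. Pairs with different numbers ran from -0.12 to 0.081. These values cannot tell whether the numbers pair the samples, since samples can be paired without sharing such deviations. With the replicate number as a block over libraries 1 to 4 of each group, 741 of all genes were higher and 1121 lower, and 2 interferon genes (Parp14 and Trim25) were higher and 3 lower. Gbp5, Irf1, Gbp2, Isg20 and Ifi35 lost their calls there. The block with the centred length offset gave 576 and 634, and 1 interferon gene (Trim25) higher and 0 lower, with 6 higher and 3 lower at an unadjusted p under 0.05; edgeR's quasi-likelihood test was used in both.

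Depth limits the low genes most, the median standard error being 0.94 over the 15 tested below 3 CPM and 0.13 over the 23 at 10 CPM or more. With the centred offset B2m was at 0.038, Bst2 at 0.19, Psmb8 at 0.11, Samd9l at -0.011 and Tyk2 at -0.0065. With the block as well, B2m was at 0.052, Bst2 at 0.15, Psmb8 at 0.14, Samd9l at -0.033, Slfn5 at 1.07 and Tyk2 at -0.027, and with the block alone Slfn5 at 1.18. With the offset not centred, Ddx58 was at -0.24, Dhx58 at -0.19, Eif2ak2 at -0.019, Gbp7 at -0.046, Ifnar1 at -0.23, Ifngr1 at -0.18, Irf8 at -0.25, Irf9 at -0.12, Ly6e at -0.13, Mx1 at -0.20, Parp9 at -0.016, Samd9l at -0.26, Trim30a at -0.16, Tyk2 at -0.26 and Xaf1 at -0.086, and the median of the interferon genes at -0.13. With library sizes alone Ifih1 was at 0.11, Psmb8 at 0.018 and Slfn5 at 0.054. Limma-voom gave 0.60 for Ifit1, 0.87 for Ifit3 and 2.01 for Slfn5. DESeq2 gave -0.0039 and its size factors in edgeR -0.0045 for Irf8, and Ifih1 was at 0.012 without a filter and 0.0014 with the stricter one. With 1 library left out, Dhx58 ran from -0.023 to 0.14, Ifih1 from -0.071 to 0.030, Irf8 from -0.050 to 0.048, Mx1 from -0.31 to 1.56, Samd9l from -0.027 to 0.21, Ifngr1 from -0.052 to 0.11, Slfn5 from -0.59 to 1.89, Oas2 from -1.01 to 0.12, Ifit1 from -1.02 to 0.036, Ifit3 from -0.78 to 1.06 and Xaf1 from -0.059 to 0.34.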

Other observations

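The interferon genes varied between libraries of the same group. The median standard deviation of log2 CPM over the 41 tested genes was 0.34 among the 4 wild type libraries and 0.23 among the 5 knockout libraries. For the 6356 tested genes between the quartiles of the interferon genes in mean level, it was 0.37 and 0.20. Counted over the 46 genes, the highest level among the 9 libraries lay in wild type library 3 for 10 genes, in knockout library 2 for 9, and in knockout libraries 3 and 5 for 6 each.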
